A study of Macaca fascicularis with 44 samples.

Results

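Among the 17293 gene identifiers counted in these libraries, 4 were picked because their level in saline-treated animals was higher in the posterior dentate gyrus (pDG) than in the anterior dentate gyrus (aDG): ENSMFAG00000045955, ENSMFAG00000035965, ENSMFAG00000042476 and ENSMFAG00000032966. The study sequenced RNA from the brains of female cynomolgus macaques (Macaca fascicularis) given either betamethasone or saline. The betamethasone animals gave 5 libraries of aDG, 5 of pDG, 4 of the basolateral amygdala (BLA) and 6 of the anterior cingulate cortex (ACC). The saline controls gave 6 libraries of each of the 4 regions. The labels give no dose, route, duration or animal age, and do not tie libraries to animals, so each p-value below measures the spread between libraries.

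The dentate gyrus is the entry field of the hippocampus, where granule neurons receive cortical input and pass it on to the pyramidal neurons of the hippocampus proper. Along its long axis the hippocampus is not uniform: in primates the anterior end is connected mainly with the amygdala, hypothalamus and medial prefrontal areas and is linked with stress and emotion, and the posterior end is linked more with spatial memory. Betamethasone is a synthetic glucocorticoid, a ligand of the glucocorticoid receptor. The 4 identifiers could not be paired with gene names, since 0 of the 17293 identifiers matched the reference gene table, and so their functions, positions and lengths are not given and tissue markers could not be checked by name. Levels are read counts scaled to the gene reads of a library (CPM), which do not allow for gene length, and are therefore compared between libraries and never between identifiers.

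Libraries held between 28449737 and 83322595 gene reads, with a median of 44944904. One library stood apart: over 13447 identifiers, aDG saline replicate 5 correlated with the mean profile of the BLA (Pearson r = 0.64 on centred log2 values) and not with that of the other aDG libraries (r = -0.19). The saline comparisons between pDG and aDG that use this library are therefore also given without it. In 6 of the other dentate libraries the profile was closer to the mean of the other dentate part than to that of their own, namely aDG betamethasone replicates 1 and 3, aDG saline replicate 2 and pDG saline replicates 2, 3 and 5. The aDG mean used for this included aDG saline replicate 5, and placement without that library was not tested. Margins could be small, as for aDG saline replicate 2 (r = 0.31 with aDG and 0.34 with pDG). No BLA or ACC library was closer to another region, although BLA saline replicate 5 correlated with its own region at only r = 0.10.

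The identifiers were chosen by their CPM in the saline dentate libraries, so those values are described here without a test. For ENSMFAG00000045955 the pDG saline libraries held 27.6 to 63.2 CPM (median 47.9) and the aDG saline libraries 12.2 to 25.1 CPM (median 18.7, or 21.6 without aDG saline replicate 5). The groups did not overlap, and the ratio of their mean CPM was 2.53, or 2.37 without aDG saline replicate 5. Within pDG the saline values fell into a low and a high set: replicates 2, 3 and 5, the ones with a profile closer to aDG, held 32.7, 35.6 and 27.6 CPM, and replicates 1, 4 and 6 held 62.3, 60.2 and 63.2 CPM. The part of that placement in the difference was not tested.

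For ENSMFAG00000035965, the identifier with the fewest reads (11 to 754 per library), the pDG saline libraries held 1.79, 2.10, 4.64, 7.76, 8.54 and 12.98 CPM. The aDG saline libraries held 0.814 to 2.50 CPM with a median of 1.50, or 0.814 to 2.05 CPM with a median of 1.49 without replicate 5. The ranges overlapped, with 4 of 6 pDG libraries above every aDG library, and the ratio of mean CPM was 3.87, or 4.34 without aDG saline replicate 5. ENSMFAG00000042476 showed a smaller and tighter difference, with 95.8 to 105.4 CPM in pDG (median 100.6) against 64.3 to 91.3 CPM in aDG (median 82.2, or 84.2 without replicate 5). Its groups did not overlap, and its ratio of 1.23 became 1.18 once aDG saline replicate 5, the lowest of the aDG values, was set aside. ENSMFAG00000032966 held 31.7 to 50.6 CPM in pDG (median 40.5) and 24.7 to 32.0 CPM in aDG (median 27.4, or 26.1 without replicate 5), a ratio of 1.45 with all libraries and 1.46 without replicate 5. Here 5 of 6 pDG libraries lay above every aDG library, and the highest aDG value was that of replicate 2, whose profile was closer to pDG. For ENSMFAG00000035965 placement ran the other way in 2 libraries. The same aDG replicate 2 held its lowest aDG value (0.814 CPM), and pDG replicate 3, closer to aDG, held 8.54 CPM, exceeded only by pDG replicate 1.

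In a fit of the 24 saline libraries with edgeR's quasi-likelihood test, these identifiers held ranks 1 to 4 by p among those higher in pDG, but the fit called 0 of 14879 identifiers in that direction at an adjusted p of 0.05, a background of 0% (654 had an unadjusted p under 0.05 in either direction). The identifier in rank 5, just outside the choice, had a log2 difference of 0.83, against 1.37 for ENSMFAG00000045955 and 1.98 for ENSMFAG00000035965, 0.56 for ENSMFAG00000032966 and 0.33 for ENSMFAG00000042476. Without aDG saline replicate 5 the ranks of ENSMFAG00000045955, ENSMFAG00000032966 and ENSMFAG00000035965 were 1, 2 and 4, and ENSMFAG00000042476 moved to rank 8. By the size of the log2 difference in the fit of all 24 libraries their ranks were 31 for ENSMFAG00000045955, 13 for ENSMFAG00000035965, 218 for ENSMFAG00000032966 and 605 for ENSMFAG00000042476. Without aDG saline replicate 5 these ranks by size were 45, 7, 212 and 830 in the same order, with log2 differences of 1.29, 2.17, 0.59 and 0.28.

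Saline aDG and pDG libraries can also be matched by the numbers in their titles, and same-numbered libraries deviated together from their group means. With title number as a block on these 12 libraries, edgeR called 15 identifiers higher in pDG and 16 lower, and the ranks by p among those higher were 4 for ENSMFAG00000045955, 86 for ENSMFAG00000035965, 62 for ENSMFAG00000042476 and 132 for ENSMFAG00000032966. Without the pair of aDG saline replicate 5, 321 were called higher and 519 lower, and the ranks were 72, 7, 139 and 105 in the same order. The members thus led the identifiers higher in pDG in the fit of all 24 saline libraries and not in the blocked fits. The blocked fits also left out the BLA and ACC libraries, so the part of the block in the change of rank was not tested. The pairs hold the libraries on which the members were chosen, so their ratios are a description and no test. ENSMFAG00000045955 was higher in pDG in 6 of 6 pairs, by 1.30-fold to 3.93-fold with a median of 2.60, or 2.79 without the pair of aDG saline replicate 5. ENSMFAG00000042476 was higher in 6 of 6 pairs as well (median 1.20-fold), with the widest gap, 1.64-fold, in the pair that holds aDG saline replicate 5 and no more than 1.26-fold elsewhere. In 5 of 6 pairs ENSMFAG00000035965 was higher in pDG, by 2.20-fold to 8.68-fold, and the exception was again the pair with aDG saline replicate 5, at a ratio of 0.842. ENSMFAG00000032966 ranged from 1.01-fold to 1.98-fold over its 6 pairs.

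**Figure D1:**
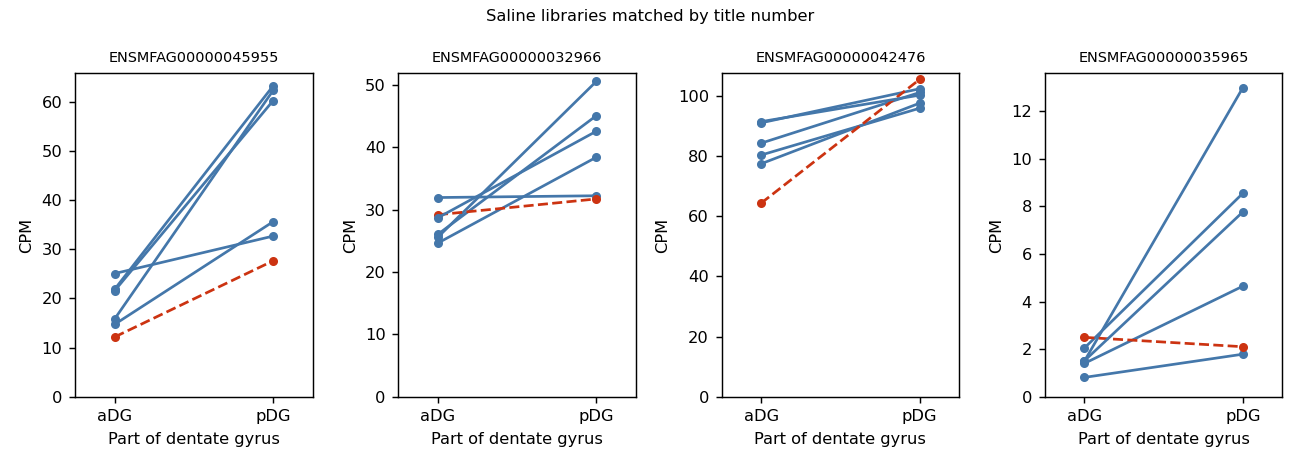
Level (CPM, vertical axis, from 0) of each identifier in the saline aDG and pDG libraries, 1 panel per identifier, with lines joining libraries that share a title number. The dashed red line is the pair of aDG saline replicate 5, the only pair in which ENSMFAG00000035965 was not higher in pDG (ratio 0.842) and the pair with the widest gap for ENSMFAG00000042476 (1.64-fold).

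The rule of the choice used saline libraries only, so the betamethasone libraries gave a test of the same difference. Earlier results of these data were known when the members were chosen, so that test was not fully independent of the choice. All 4 identifiers were again higher in pDG than in aDG, and all 4 passed in the fit of 4 regions (edgeR quasi-likelihood test on the 20 betamethasone libraries, Benjamini-Hochberg adjustment over 14962 identifiers). The background was low, since 1.24% of all identifiers tested (186) were called higher in pDG. The median log2 difference was 1.17 over the 4 and -0.00 over all identifiers tested. With only the aDG and pDG libraries in the fit, 1 of the 4 passed, and 20 of 14443 identifiers were called higher in pDG. In tissue RNA, fewer cells of a type and less RNA per cell cannot be told apart, here and in every comparison below.

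ENSMFAG00000045955 had the clearest difference. Its 5 pDG betamethasone libraries held 75.6, 68.4, 69.6, 94.3 and 89.6 CPM (79.5 ± 11.8, SD, n = 5), and its 5 aDG libraries held 18.3, 23.9, 20.2, 23.0 and 24.2 CPM (21.9 ± 2.57, SD, n = 5). The lowest pDG library was thus far above the highest aDG library. The log2 difference was 1.90 ± 0.12 (SE, 95% interval 1.65 to 2.14, edgeR adjusted p = 1.16e-08), a 3.72-fold higher level in pDG. Leaving out any 1 of the 20 libraries kept it between 1.82 and 1.95.

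ENSMFAG00000035965 held 8.53, 7.80, 7.04, 4.12 and 3.18 CPM in pDG (6.13 ± 2.35, SD, n = 5) and 1.94, 1.71, 3.21, 1.34 and 1.03 CPM in aDG (1.85 ± 0.837, SD, n = 5). The groups met at their edges, with aDG replicate 3 at about the level of pDG replicate 5. Its log2 difference of 1.76 ± 0.37 (SE, 95% interval 0.98 to 2.53, edgeR adjusted p = 0.0142) was nearly as large as that of ENSMFAG00000045955, but its interval was far wider.

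ENSMFAG00000042476 held 99.1, 127.1, 103.0, 114.1 and 113.8 CPM in pDG (111.4 ± 11.0, SD, n = 5), against 87.4, 97.7, 77.6, 89.6 and 86.6 CPM in aDG (87.8 ± 7.20, SD, n = 5). No aDG library reached the lowest pDG library. The log2 difference was small at 0.38 ± 0.08 (SE, 95% interval 0.22 to 0.54, edgeR adjusted p = 0.0120).

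ENSMFAG00000032966 was the least secure of the 4. It held 45.8, 43.6, 44.2, 44.5 and 34.7 CPM in pDG (42.6 ± 4.46, SD, n = 5) and 33.3, 31.1, 36.9, 22.4 and 21.5 CPM in aDG (29.1 ± 6.82, SD, n = 5). The highest aDG library, replicate 3, lay above the lowest pDG library, and both aDG libraries whose profile was closer to pDG, replicates 1 and 3, were the 2 highest of their group. They were also the 2 highest for ENSMFAG00000035965, but the 2 lowest for ENSMFAG00000045955. For ENSMFAG00000042476 replicate 3 was the lowest. The part of that placement in the differences was not tested. The log2 difference was 0.58 ± 0.13 (SE, 95% interval 0.30 to 0.86, edgeR adjusted p = 0.0228). The call was lost on leaving out aDG replicate 4 or 5 or pDG replicate 2, 3 or 4, with adjusted p between 0.0512 and 0.0705 and log2 differences between 0.49 and 0.58. When the fit held only the aDG and pDG libraries, 1 of the 4 identifiers, ENSMFAG00000045955, stayed past the threshold: the adjusted p was 0.0634 for ENSMFAG00000035965, 0.0974 for ENSMFAG00000042476 and 0.155 for ENSMFAG00000032966, with log2 differences of 1.75, 0.38 and 0.58.

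**Figure D2:**
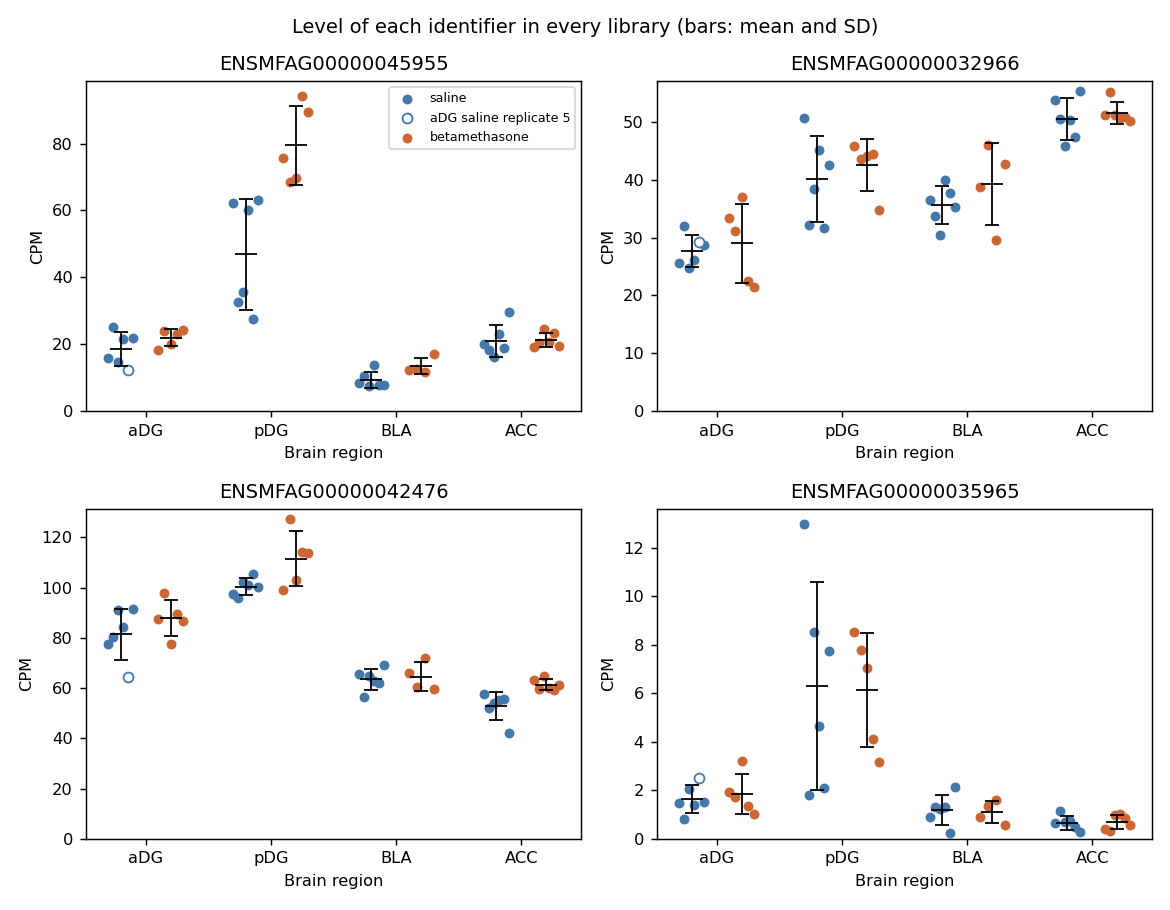
Level (CPM, vertical axes, from 0) of the 4 identifiers in all 44 libraries by region, with saline libraries in blue, betamethasone libraries in orange and aDG saline replicate 5 as an open circle; bars are the mean and SD of each group. ENSMFAG00000045955 reached 68.4 to 94.3 CPM in pDG under betamethasone and no more than 29.7 CPM outside pDG, and ENSMFAG00000032966 was highest in ACC.

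Against the BLA, 3 of the 4 identifiers were higher in pDG in the betamethasone libraries, where 11.5% of all identifiers tested were called higher in pDG. ENSMFAG00000045955 held 12.4, 12.6, 11.6 and 17.0 CPM in the 4 BLA libraries, 5.92-fold below pDG (log2 difference 2.57 ± 0.13, SE, edgeR adjusted p = 4.91e-11). ENSMFAG00000035965 held 0.882, 1.37, 1.60 and 0.588 CPM there, and its log2 difference from pDG was 2.45 ± 0.42 (SE, edgeR adjusted p = 0.000163). ENSMFAG00000042476 held 65.9, 60.2, 72.0 and 59.7 CPM, and was higher in pDG by 0.78 ± 0.08 on the log2 scale (SE, edgeR adjusted p = 5.8e-07). None of these 3 overlapped between pDG and BLA, but the share of all identifiers without overlap was not counted.

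ENSMFAG00000032966 did not separate pDG from BLA. Its 4 BLA libraries held 38.8, 46.0, 29.6 and 42.7 CPM, a range that takes in every pDG betamethasone library. The log2 difference was 0.12 ± 0.14 (SE, edgeR adjusted p = 0.619), with a 95% interval from -0.18 to 0.41, so a difference of up to 1.33-fold in favour of pDG lies within its error.

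Against the ACC the pattern was the same, with 3 of 4 higher in pDG and a background of 22.2% called higher in pDG. ENSMFAG00000045955 held 19.1 to 24.7 CPM in the 6 ACC betamethasone libraries (median 20.6), and its log2 difference from pDG was 1.89 ± 0.11 (SE, edgeR adjusted p = 5.27e-11). The ACC was where ENSMFAG00000035965 was lowest, at 0.342 to 1.04 CPM (median 0.718), giving the widest gap of any in the set (log2 difference 3.13 ± 0.37, SE, edgeR adjusted p = 8.46e-07). ENSMFAG00000042476 held 59.1 to 64.6 CPM in ACC (median 60.6), and its log2 difference was 0.86 ± 0.07 (SE, edgeR adjusted p = 1.25e-08). ENSMFAG00000032966 ran the other way, with 50.1 to 55.2 CPM in ACC (median 51.0), all above every pDG betamethasone library. Its log2 difference, pDG minus ACC, was -0.28 ± 0.13 (SE, 95% interval -0.55 to -0.02) and did not pass (edgeR adjusted p = 0.0763), though it did when the fit held only pDG and ACC (0.0128) or left out aDG replicate 5 (0.0496).

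**Figure D3:**
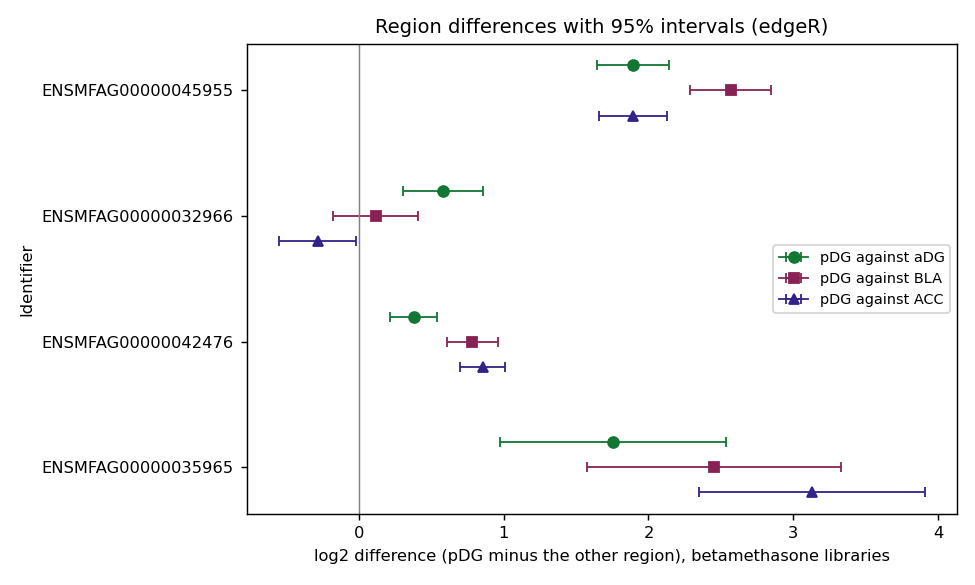
Log2 difference of pDG from each other region in the betamethasone libraries (horizontal axis, points with 95% intervals from edgeR) for the 4 identifiers. Every interval of ENSMFAG00000045955, ENSMFAG00000035965 and ENSMFAG00000042476 lies above 0. The interval of ENSMFAG00000032966 lies above 0 against aDG alone, spans 0 against BLA and lies below 0 against ACC, where it was not called after adjustment.

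The other 3 regions were not alike for these identifiers. aDG was higher than BLA for ENSMFAG00000045955 (log2 difference 0.67 ± 0.13, SE, edgeR adjusted p = 0.000504) and for ENSMFAG00000042476 (0.40 ± 0.08, SE, edgeR adjusted p = 0.00133), where 11.7% of all identifiers were called higher in aDG. ENSMFAG00000032966 was lower in aDG than in BLA, at -0.47 ± 0.14 on the log2 scale (SE, edgeR adjusted p = 0.0203, with 11.9% of all identifiers called lower). That call was lost without aDG replicate 4 (adjusted p = 0.0661), aDG replicate 5 (0.0547) or BLA replicate 2 (0.0537), and in a fit of aDG and BLA alone (0.113). The aDG and BLA levels of ENSMFAG00000035965 could not be separated (log2 difference 0.70, 95% interval -0.14 to 1.54, edgeR adjusted p = 0.218).

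Between aDG and ACC, ENSMFAG00000045955 showed no measurable gap (log2 difference -0.00, 95% interval -0.23 to 0.23, edgeR adjusted p = 0.996), a ratio of aDG to cortex between 0.851 and 1.17. ENSMFAG00000042476 and ENSMFAG00000035965 were higher in aDG than in ACC, by 0.48 ± 0.07 and 1.37 ± 0.36 on the log2 scale (SE, edgeR adjusted p = 2.57e-05 and 0.00364), against a background of 25.1% called higher. ENSMFAG00000032966 was lower in aDG, at -0.86 ± 0.13 on the log2 scale (SE, edgeR adjusted p = 1.48e-05, background 26.3% called lower). Between BLA and ACC 2 of the 4 were called, both lower in BLA, against a background of 22.0%: ENSMFAG00000045955 at -0.67 ± 0.12 (SE, edgeR adjusted p = 0.000178) and ENSMFAG00000032966 at -0.40 ± 0.14 (SE, edgeR adjusted p = 0.0249). The latter call was lost without BLA replicate 1 (adjusted p = 0.0656) or replicate 3 (0.142). ENSMFAG00000042476 and ENSMFAG00000035965 did not separate these regions, with 95% intervals of -0.09 to 0.24 and -0.14 to 1.49.

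The order of the regions under betamethasone therefore differed among the 4. For ENSMFAG00000045955 it was pDG, then aDG and ACC without a detectable difference, then BLA. ENSMFAG00000042476 was highest in pDG, next in aDG, and BLA and ACC were not separated below them. In ENSMFAG00000035965 pDG came first and aDG was above ACC, with BLA between them and separated from neither. ENSMFAG00000032966 ran ACC, pDG, BLA and aDG, and neither pDG and ACC nor pDG and BLA differed past the threshold.

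The saline libraries of BLA and ACC stood on neither side of the contrast that chose the members. The fit of 24 saline libraries in which the members led the ranks did include them. Medians were lower than under betamethasone for ENSMFAG00000045955 in BLA and for ENSMFAG00000042476 in ACC, and treatment is compared further below. ENSMFAG00000045955 held 7.36 to 13.8 CPM in BLA (median 8.24) and 16.3 to 29.7 CPM in ACC (median 19.5), and 1 ACC library, at 29.7 CPM, exceeded the lowest pDG saline library. ENSMFAG00000042476 held 56.4 to 69.0 CPM in BLA (median 63.7) and 42.2 to 57.7 CPM in ACC (median 54.7), below every pDG saline library. ENSMFAG00000035965 held 0.232 to 2.15 CPM in BLA (median 1.26) and 0.263 to 1.13 CPM in ACC (median 0.668). Its lowest BLA value was that of BLA saline replicate 5, without which the range was 0.889 to 2.15 CPM (median 1.31). Its highest, that of BLA saline replicate 6, lay above pDG saline replicates 2 and 5 (1.79 and 2.10 CPM), whereas its ACC values all lay below pDG. ENSMFAG00000032966 held 30.5 to 39.9 CPM in BLA (median 35.9) and 45.8 to 55.4 CPM in ACC (median 50.5), so that ACC, not pDG, had the highest median under saline as well.

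Whether betamethasone itself moved these identifiers could be tested in BLA and ACC. In BLA, edgeR called 0 of 14644 identifiers higher (0%) and none of the 4, although 1493 identifiers reached an unadjusted p of 0.05, with 73 called by DESeq2 and 0 by limma voom. ENSMFAG00000045955 came nearest, with 11.6 to 17.0 CPM in 4 betamethasone libraries against 7.36 to 13.8 CPM in 6 saline libraries. Its ranges overlapped, and its log2 change of 0.59 ± 0.20 (SE, 95% interval 0.15 to 1.02) had an edgeR adjusted p of 0.482. For the other 3 the log2 changes in BLA were 0.20, 0.09 and -0.04 for ENSMFAG00000032966, ENSMFAG00000042476 and ENSMFAG00000035965. Without BLA saline replicate 5 edgeR again called 0 identifiers. The ratio of mean CPM, betamethasone over saline, then went from 0.933 to 0.804 for ENSMFAG00000035965 and from 1.44 to 1.40 for ENSMFAG00000045955.

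In ACC none of the 4 passed, against a background of 0.206% called higher. ENSMFAG00000042476 held 59.1 to 64.6 CPM (median 60.6) in the 6 betamethasone libraries and 42.2 to 57.7 CPM (median 54.7) in the 6 saline libraries. These ranges did not overlap, yet the log2 change was small at 0.24 ± 0.07 (SE, 95% interval 0.08 to 0.40) and the edgeR adjusted p was 0.152. The other 3 had log2 changes of 0.04 to 0.11 in ACC, with edgeR adjusted p from 0.738 to 0.912. The difference of the treatment effect between BLA and ACC was called for 0 of 15257 identifiers (0%, with 778 at an unadjusted p under 0.05 and 3 called by DESeq2). For ENSMFAG00000045955 that difference was 0.54 ± 0.28 on the log2 scale (SE, 95% interval -0.03 to 1.11, edgeR adjusted p = 0.919).

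Within the dentate gyrus the treatment comparison shares the saline libraries on which the identifiers were picked, and it is given as a description. The level of ENSMFAG00000045955 in pDG was 68.4 to 94.3 CPM under betamethasone and 27.6 to 63.2 CPM under saline, without overlap, and the ratio of mean CPM was 1.69. In aDG its ratio was 1.18, or 1.11 without aDG saline replicate 5, with overlapping ranges. The other 3 overlapped between treatments in both dentate parts, with ratios of mean CPM in pDG of 1.06 for ENSMFAG00000032966, 1.11 for ENSMFAG00000042476 and 0.973 for ENSMFAG00000035965. On the scale of log2(CPM + 0.5), the pDG minus aDG difference of ENSMFAG00000045955 was 1.28 under saline (1.17 without aDG saline replicate 5) and 1.83 under betamethasone. That of ENSMFAG00000035965 was 1.44 under saline and 1.48 under betamethasone, and the order of the treatments turned without replicate 5, at 1.55 under saline.

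The identifiers also varied within a region. In pDG the saline libraries of ENSMFAG00000035965 had a coefficient of variation of 68.2%, against 38.4% under betamethasone, and those of ENSMFAG00000042476 only 3.40% and 9.85%. Over the 11 pDG libraries, with each treatment's mean removed, ENSMFAG00000032966 and ENSMFAG00000035965 varied together (Pearson r = 0.84, permutation p = 0.00764, adjusted p = 0.183 over 24 relations; Spearman rho = 0.65, permutation p = 0.0996, adjusted p = 0.478). Pearson r was 0.67 without the 2 libraries farthest from the median. No relation of the 24, over the 4 regions and 6 pairs of identifiers, passed the adjustment.

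For each identifier, the other identifiers whose log2 level was most alike over the 43 libraries without aDG saline replicate 5 were found among 13448 candidates. These correlations are descriptions, since libraries of 1 region share their tissue. ENSMFAG00000042476 had the closest companions, ENSMFAG00000031509 (r = 0.94) and ENSMFAG00000029625 (r = 0.93). The first of these had a mean level of 36.8 CPM in pDG, 25.6 in aDG, 6.40 in BLA and 4.16 in ACC, a far steeper fall from dentate gyrus to cortex than that of ENSMFAG00000042476 itself. ENSMFAG00000035965 was most like ENSMFAG00000043799 (r = 0.87), with mean levels of 5.08 CPM in pDG, 1.69 in aDG, 0.0996 in BLA and 0.0765 in ACC, and next ENSMFAG00000036156 (r = 0.86). Nearest to ENSMFAG00000045955 were ENSMFAG00000039619 (r = 0.87) and ENSMFAG00000002697 (r = 0.86), the second with 56.6 CPM in pDG, 42.4 in aDG, 26.0 in BLA and 31.5 in ACC. The companions of ENSMFAG00000032966 were ENSMFAG00000033596 and ENSMFAG00000046271 (both r = 0.86), and both had their highest mean in ACC. Among the 4 themselves, ENSMFAG00000042476 and ENSMFAG00000035965 were most alike (r = 0.79), and ENSMFAG00000032966 and ENSMFAG00000042476 ran against each other (r = -0.41).

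ENSMFAG00000042476 differed from the other 3 in how its reads were counted. The deposited tables hold a count that ignores strand beside 1 for each strand, and a read that overlaps genes on both strands is assigned to neither when strand is ignored. For ENSMFAG00000042476 the count without strand was 57.4% to 83.9% of the strand-specific count (median 73.3%), whereas for the other 3 it was never below 100%. Only 204 of 14688 identifiers with at least 10 reads per library on average (1.39%) had a value below 75%. The share was highest in ACC betamethasone libraries (median 81.8%) and lower in pDG betamethasone (73.3%) and aDG betamethasone libraries (71.5%). With counts that ignore strand its pDG minus aDG difference in the betamethasone libraries was 0.51 (edgeR adjusted p = 0.0107). Its aDG minus BLA difference of 0.28 no longer passed (edgeR adjusted p = 0.0679). The aDG minus ACC difference of ENSMFAG00000042476 fell from 0.48 to 0.24 with these counts, and stayed past the threshold. Its BLA minus ACC difference went from 0.07 to -0.04, and was called with neither count.

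**Figure D4:**
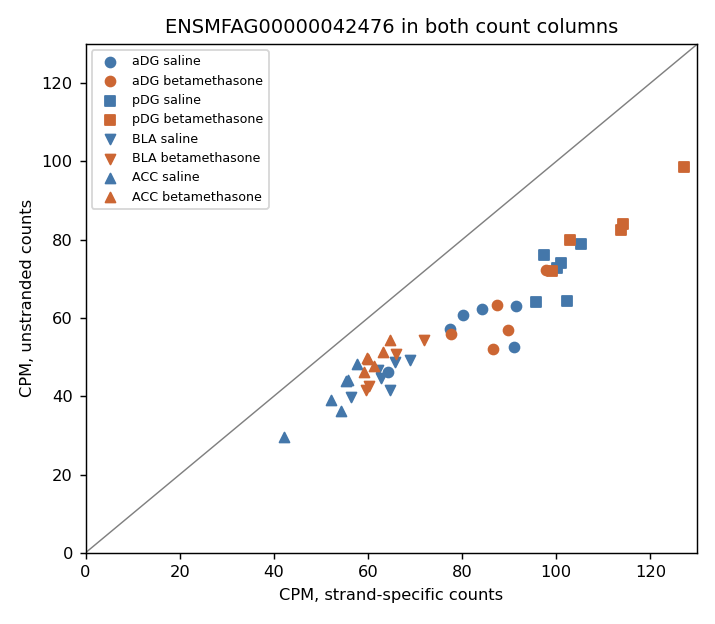
Level of ENSMFAG00000042476 in each of the 44 libraries from strand-specific counts (CPM, horizontal axis) and from counts that ignore strand (CPM, vertical axis), with the line of equal values in grey. All libraries lie below the line, and the highest on both axes is pDG betamethasone replicate 2, at 127.1 CPM on the horizontal axis.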

How the data were processed

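Total RNA from 4 brain regions of female macaques was sequenced, and 44 libraries were analysed. The authors deposited raw read counts per gene identifier, made with STAR per the submitters' processing notes (version and annotation not given in the sources used here). The tables list counts without strand and for each strand. The last column was used, since it held 51.7 to 79.3 times the reads of the opposite strand. The 4 rows that name no gene were dropped (unmapped reads were 11.0% to 31.4%), and 139 identifiers on several rows were summed, leaving 17293. Multimapping reads are listed as 0.

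Counts were tested with edgeR 4.0.16 (TMM, robust quasi-likelihood test, filterByExpr with a minimum count of 10 and total of 15, Benjamini-Hochberg adjustment, threshold 0.05). SE is the log2 difference over the square root of F. The 20 betamethasone libraries entered 1 fit of 4 groups, treatment was tested within BLA and within ACC, and the interaction used all 44 libraries. The saline dentate contrast chose the members: it was fitted only to give their ranks, and is no test of them. The members and the lists were chosen with earlier results of these data known. The text names the 4 members and, for each, the 2 identifiers most correlated with it (mean CPM of at least 1). Within-region relations used 100000 permutations. The procedure was tested on simulated data.

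Titles number the libraries, and pDG numbers are 31 above aDG numbers. Same-numbered saline libraries deviated together (r from 0.15 to 0.80 in 6 of 6 pairs). DESeq2 1.42.0, limma voom 3.58.1, upper-quartile scaling, no filter, unstranded counts, fewer groups, a title-number block, a pseudocount of 0.1 in place of 0.5 and leaving out each library were the alternatives. Libraries of 1 group were no duplicates (chi-square per degree of freedom 20.0 to 442 over 101 pairs).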

Additional observations from a re-analysis of the deposited data

Results flagged for a closer look

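A library lay far from the rest of its group in 3 of the 32 groups of values (4 identifiers, 8 groups), where chance gives about 1.6 at the usual 1 in 20. For ENSMFAG00000032966, pDG betamethasone replicate 5 held 34.7 CPM when the other 4 libraries held at least 43.6 CPM; without it the pDG minus aDG difference stayed past the threshold. For the same identifier, ACC betamethasone replicate 2 held 55.2 CPM and the next library 51.2 CPM. For ENSMFAG00000042476, ACC saline replicate 6 held 42.2 CPM and the next library 52.2 CPM; without it the log2 change under betamethasone in ACC was 0.18 in place of 0.24.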

How the results depend on the processing

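Over all alternatives no member's difference that passed changed direction. In the betamethasone pDG against aDG contrast 401 identifiers were called in either direction, against 788 by DESeq2, 61 with only those 2 regions, 120 with a block by title number and 163 to 551 on leaving out single libraries. Of the members, 4 were called, against 1 with only the 2 regions, 2 with the block (ENSMFAG00000045955 and ENSMFAG00000035965; adjusted p = 0.0621 for ENSMFAG00000032966 and 0.0556 for ENSMFAG00000042476) and 3 to 4 on leaving out single libraries. The betamethasone pairs shared a number but not a clear deviation (r over 0.1 in 3 of 5, from -0.07 to 0.68, with the own number highest in 3 of 5), so the block is given here alone. Members called in BLA against ACC ranged from 1 to 2. For betamethasone against saline, DESeq2 called 73 identifiers in BLA in place of 0; in ACC 48 became 557 by DESeq2 and 3 to 206 on leaving out single libraries, the lowest without saline replicate 2 and the highest without saline replicate 1. DESeq2 called 3 identifiers in place of 0 for the difference of treatment effects. In the saline description, the log2 difference of ENSMFAG00000042476 went from 0.31 to 0.24 without aDG saline replicate 5 and to 0.23 as a mean of title-number pairs without its pair, a setting chosen after seeing the data. ENSMFAG00000035965, with a median of 53.5 reads, has the widest intervals. The counts of all identifiers in each fit rest on 4 to 6 libraries a group, and no allowance was made for gene length.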
